A study of Homo sapiens with 12 samples.

Results

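The genes described here encode the proteins of the cytosolic ribosome. They were chosen by name from the deposited expression table: every gene called RPL or RPS followed by a number, with or without a closing A or X, together with RPLP0, RPLP1, RPLP2 and RPSA. RPL22 was left out. The rule found 76 of the 35238 genes in the table, of which 31 belong to the small subunit, which reads the mRNA, and 45 to the large subunit, which forms the peptide bonds. The rule uses names and no expression value, although it was set with earlier results of these data known.

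A ribosome needs its proteins in equal amounts, so these genes are usually expressed together and at high levels. Most of their mRNAs begin with a terminal oligopyrimidine (TOP) tract, a C followed by an unbroken run of C and T at the very start of the transcript. The tract ties their translation to growth signalling through the mTOR kinase and the RNA-binding protein LARP1. The mRNAs are short and long-lived, and several of the genes carry small nucleolar RNAs (snoRNAs), which guide the modification of ribosomal RNA, in their introns.

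RNA sequencing was carried out on HK-2 cells, an immortalized line from the human kidney proximal tubule. All cells were transfected, with either a scrambled siRNA (SCR) or an siRNA against POLR2A (siB) at 10 nM, and received at the time of transfection the DNA-damaging plant compound aristolochic acid I (AAI) at 25 µM, or its vehicle DMSO, for 24 hours. POLR2A encodes RPB1, the catalytic subunit of RNA polymerase II, and the design asks how its knockdown alters the response of injured cells. The 4 groups, SCR DMSO, SCR AAI, siB DMSO and siB AAI, held 3 libraries each, and the groups were taken from the sample titles because the treatment field of the labels gave DMSO for every sample.

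Depth ran from 15844015 to 42805294 reads per library, and the lowest value of any ribosomal protein gene in any library rested on 1786 reads. Levels are given as CPM, the reads of a gene scaled to a common library total. POLR2A, the targeted gene, ranged from 258 to 306 CPM in the SCR DMSO libraries and from 138 to 143 CPM after knockdown. With AAI it ranged from 673 to 729 CPM in SCR and from 210 to 266 CPM in siB cells. Of 13 kidney epithelial markers 8 reached 1 CPM in every library, with means of 341 CPM for PAX8, 657 CPM for KRT8, 134 CPM for GGT1 and 10.2 CPM for SLC5A2. The other 5 did not, with a mean of 1.19 CPM for SLC34A1 and under 1 CPM for LRP2, CUBN, ANPEP and AQP1. Of 5 markers of other cells CD68 and COL1A1 reached 1 CPM in every library. One non-coding transcript, AC010970.2, took between 1887 and 105566 CPM. SCR DMSO replicate 2 stood apart from the other libraries for the ribosomal protein genes: 72 of the 76 genes were higher in it than in both other SCR DMSO libraries, by a median of 1.47-fold over their mean, and 66 had their highest value of all 12 libraries there. It stood apart beyond these genes too. It was the deepest library, at 42805294 reads, and its median-ratio size factor relative to its reads was 0.776, against 0.955 to 1.12 elsewhere. Summed levels of other TOP mRNAs, mitochondrial ribosome genes and respiratory chain genes were also highest in it, at 22268, 4279 and 4889 CPM. For comparisons that use SCR DMSO, the summed level, the median and the count of positive changes are therefore also given without this library. Changes of single genes include it unless stated. CPM is a share of all reads, so the number of ribosomal protein mRNAs per cell was not measured, and in bulk RNA fewer cells of a kind and less RNA per cell cannot be told apart.

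The starts of the transcripts were read from RefSeq (GRCh38.p14), which held an entry for 61 of the 76 genes. At the annotated start, 41 of the 61 genes had a C followed by at least 4 pyrimidines, or 67.2%, against 4.04% of 27305 human promoters read in the same way. When the tract was allowed to begin within 5 bases of the annotated start, 49 of 61 genes had one, or 80.3%, against 21.1% of all promoters. The motif CCGGAAG, searched on both strands from 250 bases before the start to 50 after it, was found in 34.4% of the 61 promoters and in 10.7% of all, and TATAAA in 8.20% and 11.95%. The windows below run from 10 bases before the annotated start to 20 from it, read along the transcript, and capitals mark the unbroken run of C and T from the first transcribed base. Shown are RPL3 and 6 of the genes raised by AAI in siB cells, with and without a tract, and RPLP0, the most abundant of the 76, for comparison. RPL37, also raised, is not among the 61.

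RPS29, chr14:49598691-49598720, minus strand: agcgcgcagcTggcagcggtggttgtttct
RPL21, chr13:27251548-27251577, plus strand: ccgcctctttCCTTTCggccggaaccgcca
RPL39, chrX:119791611-119791640, minus strand: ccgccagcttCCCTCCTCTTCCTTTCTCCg
RPL26, chr17:8383174-8383203, minus strand: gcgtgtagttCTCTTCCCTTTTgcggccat
RPS24, chr10:78033853-78033882, plus strand: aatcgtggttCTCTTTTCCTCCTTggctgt
RPL4, chr15:66504836-66504865, minus strand: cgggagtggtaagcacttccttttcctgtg
RPL3, chr22:39319604-39319633, minus strand: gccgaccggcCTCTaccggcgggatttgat
RPLP0, chr12:120201092-120201121, minus strand: ggcgcgaggcCCTTCTCTCgccaggcgtcc

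RPL39 had the longest tract of those shown, 19 bases. RPL3 had a run of 4 bases that begins with a C, which is shorter than the tract counted above. RPS29 and RPL4 had no run that begins with a C at the annotated start. The annotated start is a database entry and the start used in these cells was not measured.

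In GENCODE release 44 (hg38) the 76 genes were compact and scattered over 21 chromosomes. Their median span was 5331 bp, against 33436 bp for 13071 protein-coding genes with a mean level of at least 1 CPM, and 73 of the 76 spanned less than 30 kb, against 46.8% of those genes. The longest, RPL37A, spanned 80356 bp. The canonical transcript had a median length of 782 bases against 3373. Small nucleolar RNA genes lay inside 28 of the 76, 60 in all, with 5 in RPL4, 4 in RPL7A and 3 in RPL3.

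All 76 genes were expressed well above the detection limit, with mean levels from 129 to 2291 CPM, and 65 of them were among the 500 most abundant genes of the table. Per kilobase of canonical transcript RPLP0, the base of the stalk that recruits elongation factors, was highest at 2073 CPM per kb, followed by RPS18, a protein of the small subunit head, at 1770 CPM per kb, against a median of 712 CPM per kb. The lowest values per kilobase, 51.3 CPM per kb for RPL14 and 54.2 CPM per kb for RPL37, rested on canonical transcripts of 7136 and 7573 bases. Per kilobase of coding sequence the order was different: RPL41, whose coding sequence of 75 bases is the shortest of all, was highest at 9123 CPM per kb, and RPS9 was lowest at 267 CPM per kb. The order of levels between these genes thus depended on the length used.

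Together the 76 genes took 4.28% to 6.99% of all reads. In SCR cells their summed level was 44876, 69857 and 47146 CPM with DMSO, and 56075, 46913 and 42779 CPM with AAI. The siB libraries gave 43112, 46869 and 47919 CPM with DMSO and 50198, 50109 and 48512 CPM with AAI. The SCR DMSO and SCR AAI libraries overlapped, whereas each siB AAI library was above each siB DMSO library. The means of SCR cells were 53960 ± 13814 CPM with DMSO and 48589 ± 6804 CPM with AAI, and those of siB cells 45967 ± 2527 CPM and 49606 ± 949 CPM (SD, n = 3). Without replicate 2 the SCR DMSO mean was 46011 CPM, within the range of the other groups. The log2 ratio of the siB AAI to the siB DMSO mean was 0.11, and it was -0.0075 when libraries were scaled by median-ratio size factors in place of total reads.

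**Figure D1:**
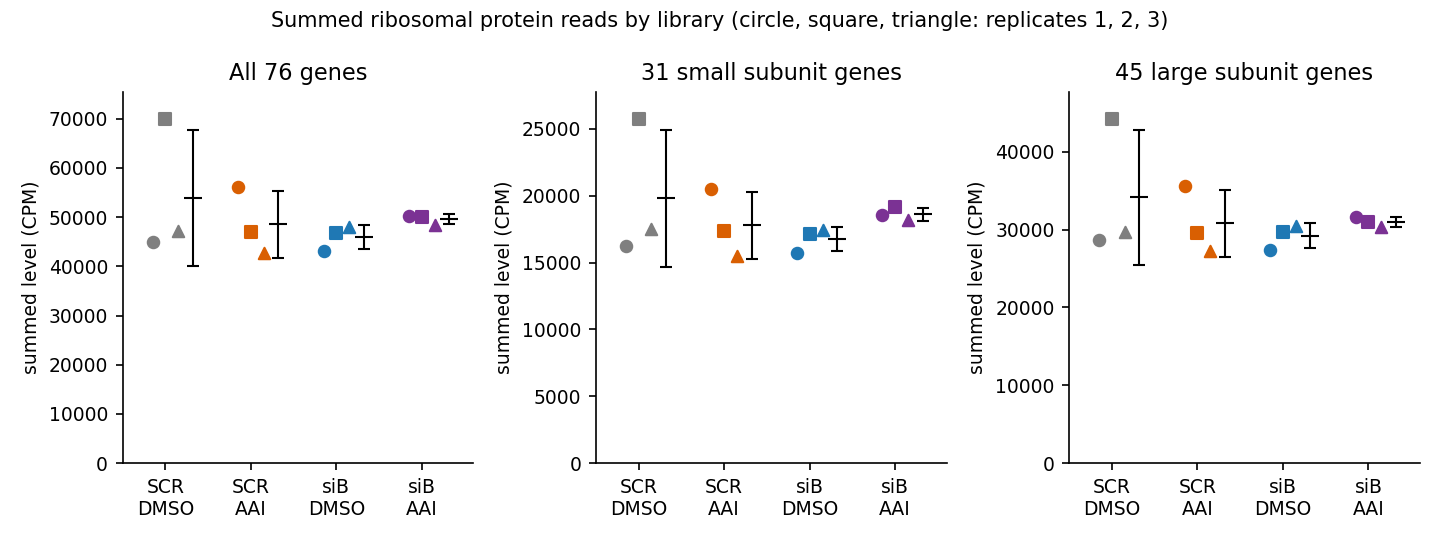
Summed level in CPM of all 76 ribosomal protein genes, the 31 small subunit genes and the 45 large subunit genes in each library, with the mean and SD of each group (n = 3) in black. SCR DMSO replicate 2, the square at 69857 CPM in the left panel, lies above all other libraries, which sit between 42779 and 56075 CPM.

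The balance between the subunits varied little. The small subunit genes took 36.7% ± 0.486 of the ribosomal protein reads in SCR DMSO, 36.6% ± 0.351 in SCR AAI, 36.5% ± 0.0385 in siB DMSO and 37.5% ± 0.642 in siB AAI (SD, n = 3). The lowest library was at 36.2% and the highest at 38.2%, and each siB AAI library was above each siB DMSO library. SCR DMSO replicate 2, at 36.8%, lay between the other libraries on this measure, so its higher level was shared by both subunits.

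The first comparison asked how AAI acts on cells with the scrambled siRNA, in which POLR2A itself was higher with AAI. On the log2(CPM + 1) scale 65 of the 76 genes were lower in SCR AAI than in SCR DMSO, with a median of -0.10 against 0.18 over the 14228 genes tested. No ribosomal protein gene passed limma's moderated test at an adjusted p under 0.05 in either direction, where 8.98% of all genes were raised and 3.36% lowered, and the same held for limma-voom on the recovered reads. With the replicate number as a block, 2086 of all genes were raised and 911 lowered, and again 0 of the 76. Same-numbered libraries were taken as pairs here from the correlation of their deviations. Of the 76 genes 2 had an unadjusted p under 0.05, RPL3 and RPS15A. The groups did not overlap for 4 genes, all lower in SCR AAI (RPL3, RPS15A, RPL34 and RPL31), and for 0 genes that were higher, against 11.5% and 22.2% of all genes. Without SCR DMSO replicate 2 the median was 0.08, against 0.07 over all genes, and 51 genes were above 0. Without SCR AAI replicate 3 the median was -0.01 and 32 genes were above 0. With any 1 of the other libraries left out the median lay between -0.22 and -0.08. The direction of the group as a whole thus depended on single libraries, most on SCR DMSO replicate 2.

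RPL3, a large subunit protein that lies close to the peptidyl transferase centre, was the gene with the most negative change. Its level was 1315, 1812 and 1056 CPM in SCR DMSO against 967, 684 and 804 CPM in SCR AAI. All SCR AAI libraries were below all SCR DMSO libraries. The log2 change was -0.75 ± 0.27 (SE), with an adjusted p of 0.118 (limma). RPS15A, a protein of the small subunit body, was at 284, 396 and 380 CPM in SCR DMSO against 264, 244 and 188 CPM in SCR AAI, also without overlap, and changed by -0.60 ± 0.23 (SE, adjusted p = 0.139, limma). The changes were -0.48 ± 0.24 for RPL34 and -0.44 ± 0.21 for RPL31, and neither passed the test. Without SCR DMSO replicate 2 the changes were -0.54 for RPL3, -0.51 for RPS15A and -0.33 for RPL31, and none of them passed. When all 4 groups were fitted together, which pools the spread over 12 libraries, RPL3, RPS15A and RPL31 passed, with adjusted p of 0.0134, 0.0233 and 0.0405 (limma).

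At the other end stood RPS29, a small zinc-binding protein of the small subunit head, and RPL37, a zinc-binding protein of the large subunit. RPS29 was at 82.5, 156 and 104 CPM in SCR DMSO against 160, 152 and 115 CPM in SCR AAI. The groups overlapped through SCR DMSO replicate 2, and the change of 0.35 ± 0.28 did not pass the test (SE, adjusted p = 0.458, limma). RPL37 was at 345, 508 and 318 CPM in SCR DMSO against 596, 401 and 433 CPM in SCR AAI, a change of 0.30 ± 0.26 (SE, adjusted p = 0.507, limma). The next most positive changes, 0.23 ± 0.31 for RPS9 and 0.10 ± 0.24 for RPL24, were smaller than their standard errors. Without SCR DMSO replicate 2 the change was 0.60 for RPS29 (adjusted p = 0.0794, limma) and 0.50 for RPL37 (adjusted p = 0.144, limma).

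The second comparison asked the same of cells with POLR2A knocked down. In siB cells AAI raised 12 of the 76 genes and lowered 1 at an adjusted p under 0.05 (limma), which for the raised genes is 15.8% of them. Over all 14928 genes tested 30.4% were raised and 21.8% lowered, and the difference between these shares was not tested. The raised genes were RPS29, RPL37, RPL21, RPL39, RPL26, RPL36A, RPL24, RPS24, RPS3A, RPL9, RPL14 and RPL4, and the lowered gene was RPL3. None of them changed 2-fold, where 13.9% of all genes were raised and 5.79% lowered by at least that much. The median over the 76 genes was 0.14 and the quartiles were 0.07 and 0.24, against a median of 0.10 and quartiles of -0.34 and 0.58 over all genes. The groups did not overlap for 33 genes that were higher and 1 that was lower in siB AAI, with 34.2% and 26.6% of all genes.

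**Figure D2:**
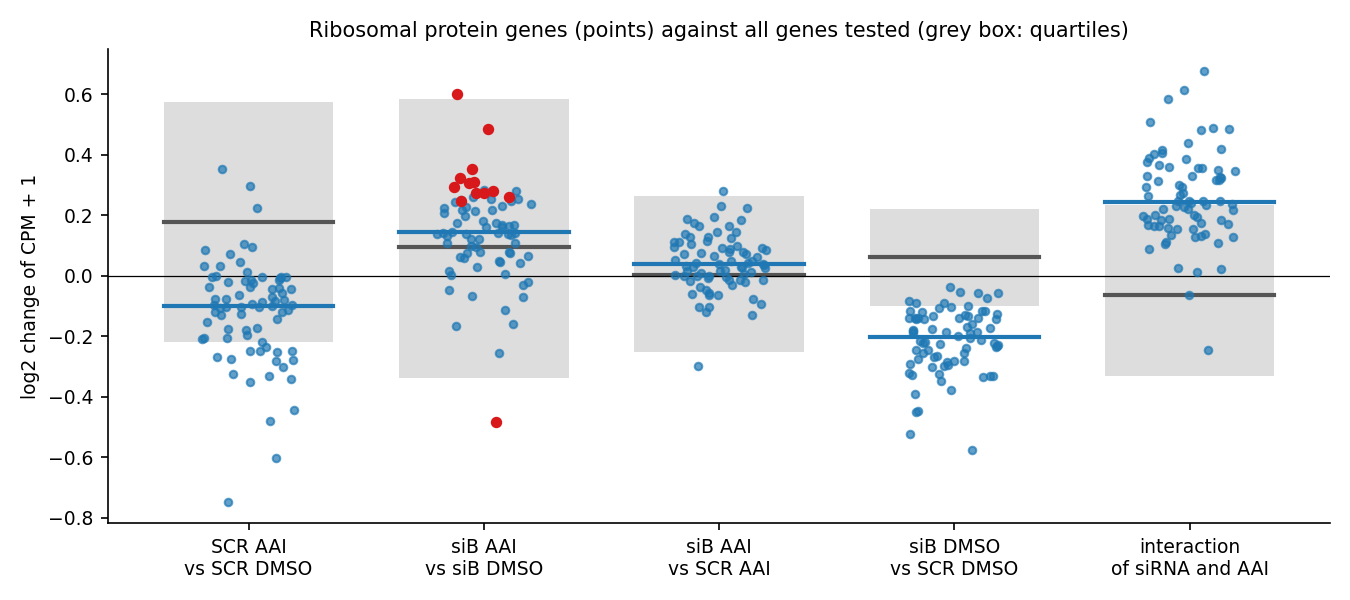
Log2 change of CPM + 1 for each of the 76 ribosomal protein genes (points, red where the adjusted p was under 0.05) in the 4 comparisons and for the interaction, with their median in blue. The grey boxes run from the lower to the upper quartile of all genes tested, with the median as a grey line. The 76 points lie close together in each comparison, and red points appear in siB AAI against siB DMSO alone, 12 above 0 and 1 below it.

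RPL3 again had the most negative change. It was at 1225, 1251 and 1244 CPM in siB DMSO against 926, 835 and 901 CPM in siB AAI. The groups were far apart relative to their spread, and RPL3 fell by 0.48 on the log2 scale (SE 0.09, adjusted p = 0.00191, limma). It passed the test under each alternative that was tried except the fit of all 4 groups, where the adjusted p was 0.0722. RPL13, the next most negative, was at 1634, 1890 and 1907 CPM in siB DMSO against 1734, 1480 and 1353 CPM in siB AAI, with overlap, and its change of -0.25 ± 0.12 did not pass (SE, adjusted p = 0.105, limma). The changes of RPL36 and RPS15A were each -0.16 ± 0.11.

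RPS29 had the most positive change in siB cells as well. Its level was 91.9, 115 and 102 CPM in siB DMSO against 162, 146 and 161 CPM in siB AAI. The groups did not overlap, and RPS29 rose by 0.60 ± 0.11 (SE, adjusted p = 0.00187, limma). It passed the test under every alternative that was tried, with adjusted p up to 0.0487 in the fit of all 4 groups. RPL37 was at 301, 356 and 311 CPM in siB DMSO against 514, 401 and 444 CPM in siB AAI, and rose by 0.48 ± 0.12 (SE, adjusted p = 0.00751, limma). Its adjusted p was 0.0878 in the fit of all 4 groups and passed under the other alternatives.

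The other 10 raised genes changed by 0.25 to 0.35 on the log2 scale. RPL21 went from 209, 223 and 247 CPM in siB DMSO to 270, 342 and 261 CPM in siB AAI, a rise of 0.35 ± 0.13 (SE, adjusted p = 0.0401, limma). RPL39, one of the smallest ribosomal proteins, which lines the tunnel through which the new peptide leaves, went from 262, 298 and 284 CPM to 364, 313 and 379 CPM, a rise of 0.32 ± 0.11. RPL26, another protein at the tunnel exit, went from 403, 449 and 440 CPM to 540, 550 and 513 CPM, a rise of 0.31 ± 0.09. For each of these 3 genes the siB AAI libraries lay above all siB DMSO libraries. RPL4, whose introns hold 5 snoRNA genes, was at 948, 947 and 950 CPM in siB DMSO against 1179, 1077 and 1119 CPM in siB AAI, a rise of 0.25 ± 0.09 (SE, adjusted p = 0.0437, limma) beside an SD of 1.52 CPM in siB DMSO.

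These smaller rises depended on single libraries and on the scaling. The count of raised genes was 7 without siB DMSO replicate 1, 2 without siB DMSO replicate 2, 2 without siB DMSO replicate 3 and 5 without siB AAI replicate 3, and it was 2 when libraries were scaled by median-ratio size factors, which also moved the median of all genes from 0.10 to -0.02. Under that scaling 48 of the 76 genes were above 0, against 66 by total reads. The count of lowered genes was 2 without siB AAI replicate 1. RPL9 may share reads with its pseudogene RPL9P9, since how reads that match several genes were counted is not given in the sources used here. RPL9P9 was counted at 400 ± 26.4 CPM in siB DMSO against 475 ± 35.0 CPM in siB AAI (SD, n = 3), above RPL9 itself at 244 ± 9.15 and 295 ± 10.9 CPM, so the level of RPL9 is uncertain. RPL23A and RPS2 also have copies in the table, RPL23AP42 and RPS2P5, which averaged 180 and 98.9 CPM, and sharing of reads was not tested.

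**Figure D3:**
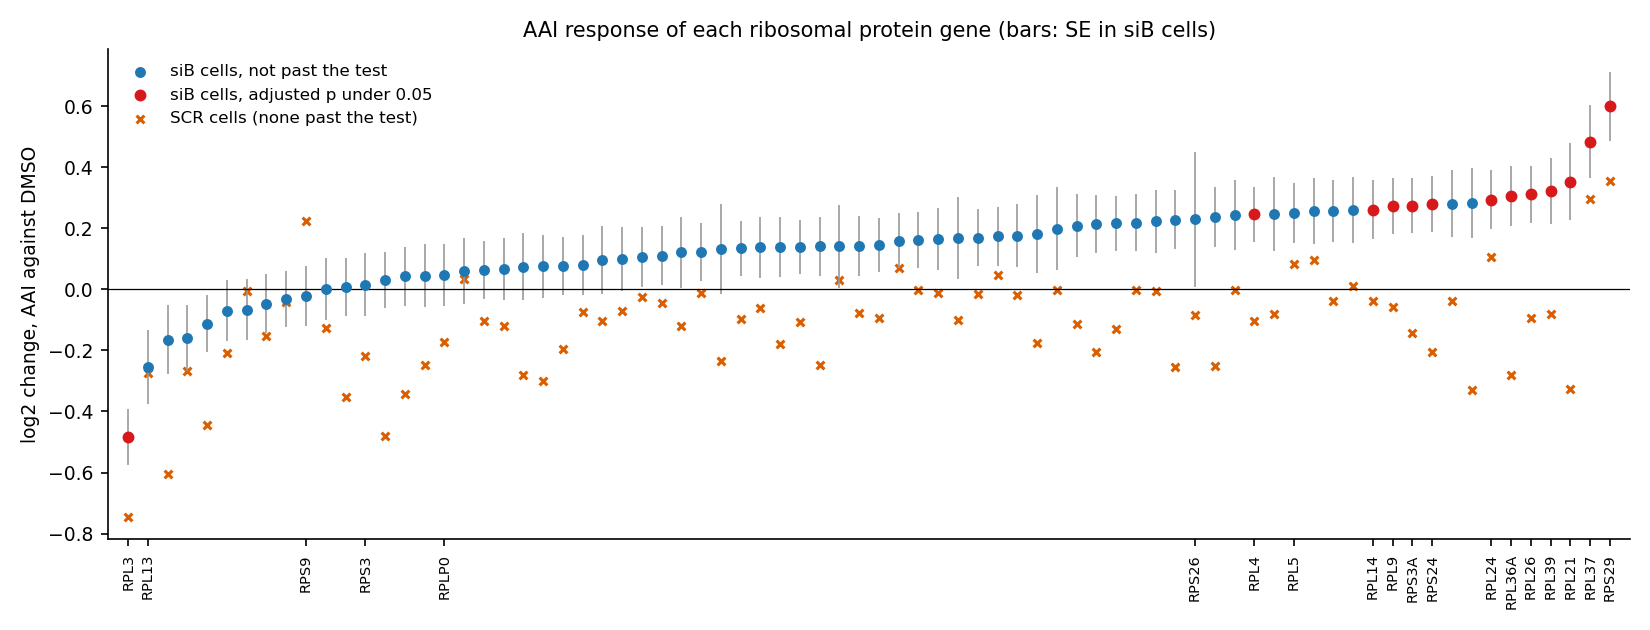
Log2 change of CPM + 1 with AAI against DMSO for each of the 76 genes, ordered by the change in siB cells (circles with SE bars, red where the adjusted p was under 0.05) and with the change in SCR cells as crosses; the axis names the 13 genes past the test and 6 others described in the text. RPL3 lies lowest with both siRNAs, at -0.48 in siB and -0.75 in SCR cells, and RPS29 highest with both, at 0.60 and 0.35.

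By role, the response in siB cells was small throughout. The stalk proteins RPLP0, RPLP1 and RPLP2, which recruit translation factors to the large subunit, changed by 0.05 ± 0.10, 0.08 ± 0.10 and 0.22 ± 0.09, and none passed the test. RPL5 and RPL11, which also bind the p53 regulator MDM2 when ribosome assembly is disturbed, changed by 0.25 ± 0.10 (SE, adjusted p = 0.0566, limma) and 0.14 ± 0.10 (SE, adjusted p = 0.244, limma). RPL5 was at 663, 639 and 662 CPM in siB DMSO against 845, 713 and 783 CPM in siB AAI, without overlap. Of 7 proteins at the tunnel exit 2 rose, RPL39 and RPL26, where 30.4% of all genes tested were raised. RPL31, also at the exit, changed by -0.11 ± 0.09.

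Of 7 small subunit proteins at the path of the mRNA 0 passed the test in siB cells (limma), and 0 had an unadjusted p under 0.05. Over all genes tested 30.4% were raised and 21.8% lowered. RPS3, at the mRNA entry, changed by 0.02 ± 0.10. RPSA was at 866, 951 and 1005 CPM in siB DMSO against 1102, 1089 and 1075 CPM in siB AAI, without overlap, and changed by 0.21 ± 0.10 (SE, adjusted p = 0.0875, limma). RPS26, at the mRNA exit, varied most between replicates in siB AAI, with 119, 244 and 147 CPM, and changed by 0.23 ± 0.22. RPS6, the target of the mTOR-dependent S6 kinases, changed by 0.08 ± 0.10 and RPS27A, which is made as a fusion with ubiquitin, by 0.22 ± 0.10, and neither passed.

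Of 9 genes listed as mutated in Diamond-Blackfan anaemia, an inherited failure of red cell production, 1 rose in siB cells. This was RPS24, by 0.28 ± 0.09 (SE, adjusted p = 0.0274, limma). Over all genes tested in this comparison 30.4% were raised. The list is partial, so other raised genes may also be mutated in that disease. RPS24 was at 574, 558 and 604 CPM in siB DMSO against 725, 669 and 715 CPM in siB AAI. RPS19, the gene most often affected in that disease, was at 642, 701 and 684 CPM and then 786, 890 and 750 CPM, without overlap, and its change of 0.26 ± 0.10 missed the threshold (SE, adjusted p = 0.0579, limma). RPL10 and RPS4X, both X-linked, changed by 0.05 ± 0.10 and 0.14 ± 0.09, and RPL41 by 0.21 ± 0.10.

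**Figure D4:**
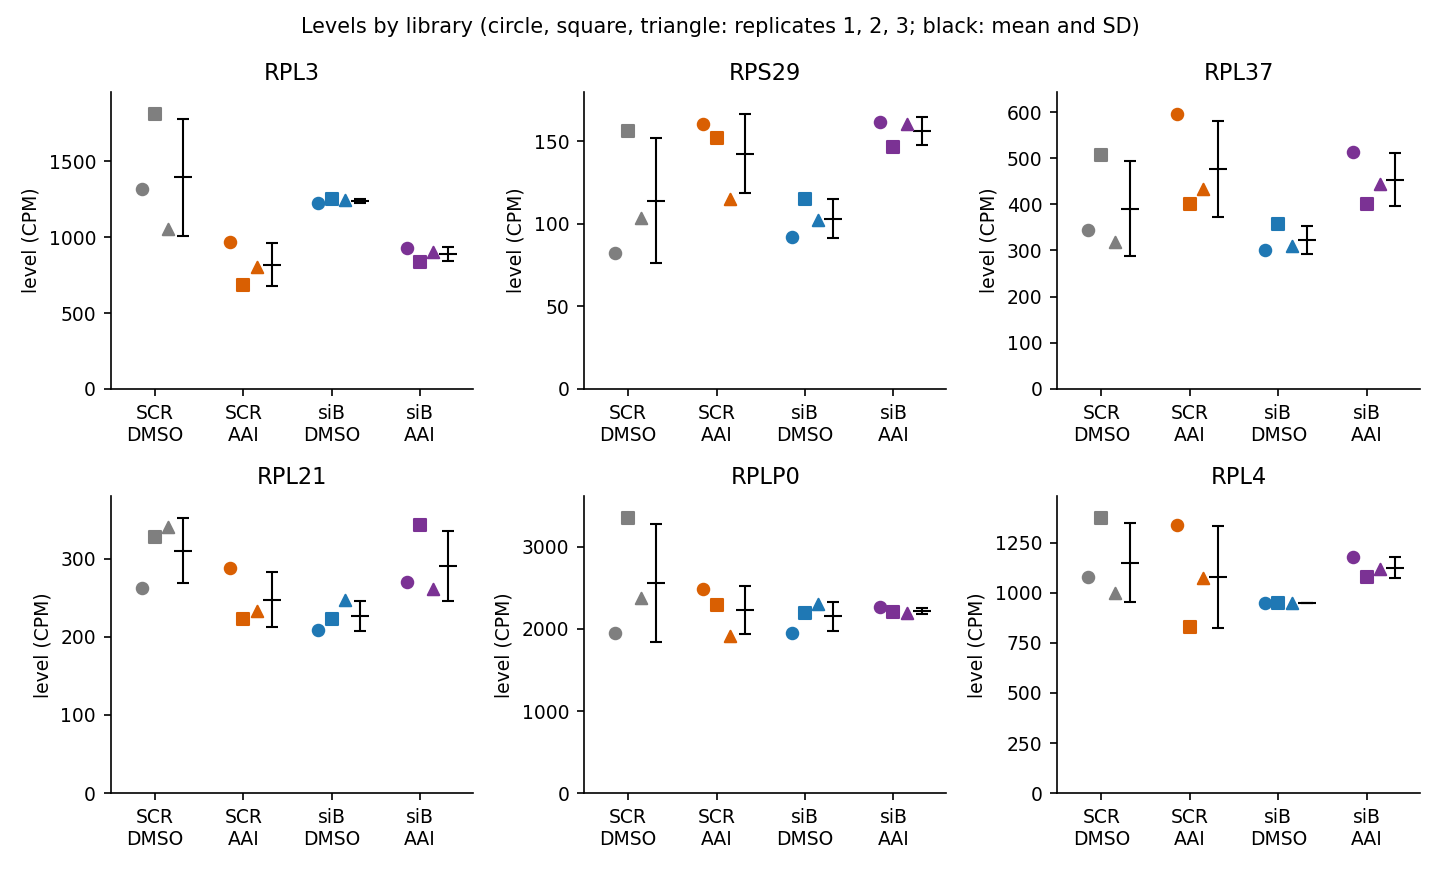
Level in CPM of RPL3, RPS29, RPL37, RPL21, RPLP0 and RPL4 in each of the 12 libraries, with the mean and SD of each group (n = 3) in black. For RPL3 the AAI libraries lie below the DMSO libraries with both siRNAs, and for RPLP0 the groups overlap except for SCR DMSO replicate 2 at 3349 CPM.

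The response was also described by features of the genes. The 41 genes with a TOP tract at the annotated start and the 20 without one had median changes of 0.14 and 0.14 in siB cells and -0.11 and -0.08 in SCR cells. Of the 12 raised genes 11 had a RefSeq start, and 8 of the 11 had the tract. The 28 genes with intronic snoRNAs and the 48 without had medians of 0.11 and 0.16 in siB cells and -0.13 and -0.08 in SCR cells. Across the 76 genes Spearman's rho between the change in siB cells and the length of the transcript was -0.19, the span of the gene 0.17, and the mean level -0.26, as descriptions over genes of the same libraries.

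To separate single genes from the level of the group, each gene was divided by the summed ribosomal protein reads of its library. On this share 3 genes were higher in all 6 AAI libraries than in all 6 DMSO libraries (RPL15, RPL37 and RPS29) and 2 were lower (RPL3 and RPL31), where 13.9% and 5% of 15325 genes divided in the same way did not overlap. RPL3 took 2.93, 2.59 and 2.24% of the ribosomal protein reads in SCR DMSO and 1.73, 1.46 and 1.88% in SCR AAI. In siB DMSO it took 2.84, 2.67 and 2.60%, and in siB AAI 1.85, 1.67 and 1.86%. SCR DMSO replicate 2 lay between the other SCR DMSO libraries on this measure. RPS29 took 0.184, 0.223 and 0.220% in SCR DMSO, 0.286, 0.323 and 0.269% in SCR AAI, 0.213, 0.246 and 0.213% in siB DMSO, and 0.322, 0.292 and 0.331% in siB AAI.

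**Figure D5:**
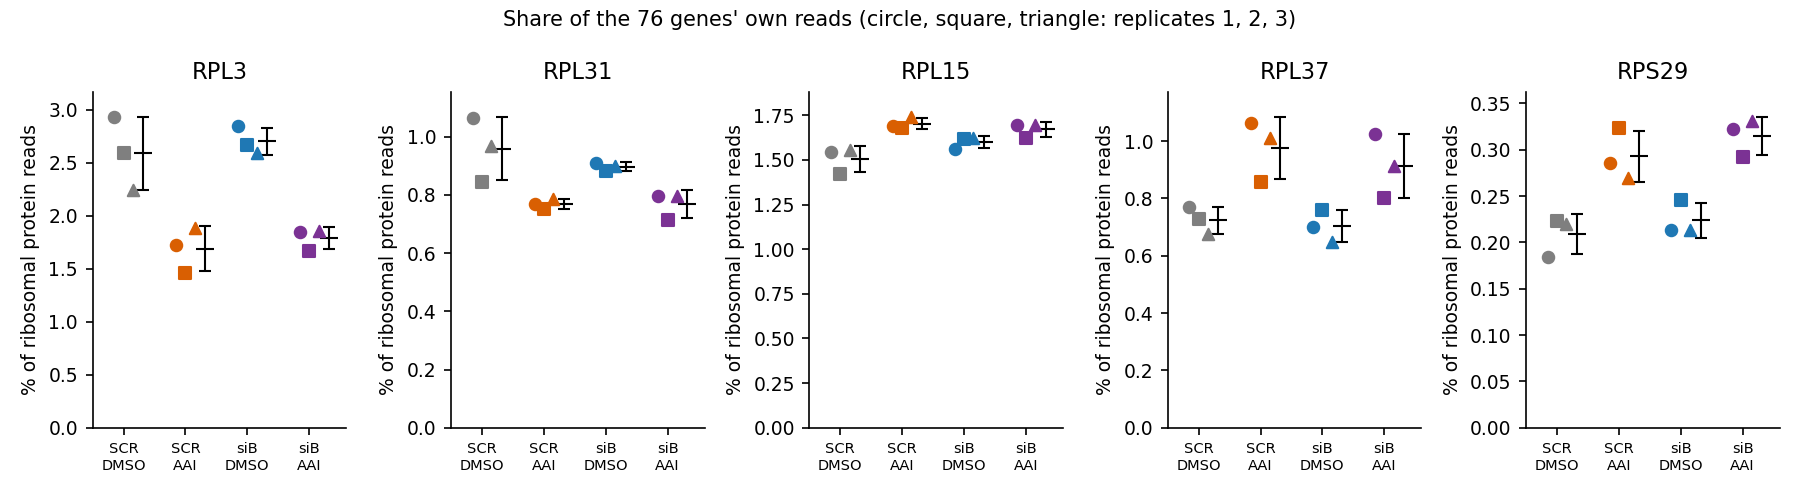
Share of the summed reads of the 76 genes taken by RPL3, RPL31, RPL15, RPL37 and RPS29 in each library, in percent, with the mean and SD of each group (n = 3). RPL3 and RPL31 are lower in all 6 AAI libraries than in all 6 DMSO libraries, and RPL15, RPL37 and RPS29 are higher, including against SCR DMSO replicate 2 (grey squares).

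The AAI responses of SCR and siB cells rest on different libraries and were set side by side. Of the 76 genes 10 were above 0 in both, 9 below 0 in both, 56 below 0 in SCR and above 0 in siB cells, and 1 the reverse. Across the genes Pearson's r was 0.59 and Spearman's rho 0.37, and without SCR DMSO replicate 2 they were 0.42 and 0.21. The libraries behind the 2 responses were not independent, since same-numbered libraries shared deviations across the siRNAs. These correlated at 0.30 to 0.64 between the AAI groups. Between the DMSO groups they correlated at 0.74, 0.61 and -0.20 for replicates 1, 2 and 3. Whether this sharing added to the r of 0.59 was not tested. The difference between the responses was tested as an interaction over all 4 groups. No ribosomal protein gene passed (limma and limma-voom), with 1.46% of all 15325 genes passing above 0 and 0.157% below it, although 74 of the 76 estimates were above 0 with a median of 0.24 against -0.06 over all genes. The 2 genes with an unadjusted p under 0.05 were RPL21, at 0.68 ± 0.23 (SE, adjusted p = 0.204, limma), and RPL36A, at 0.59 ± 0.25 (SE, adjusted p = 0.328, limma). Without SCR DMSO replicate 2 the median was 0.06, as for all genes, and 49 of the 76 estimates were above 0.

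The third comparison set the injured cells with and without knockdown against each other. POLR2A was 1.61 lower on the log2 scale in siB AAI than in SCR AAI. The summed ribosomal protein level was 49606 CPM against 48589 CPM, with overlapping libraries. Over the 76 genes the median change was 0.04 and the quartiles were -0.01 and 0.10, against 0.00 and quartiles of -0.25 and 0.26 over all 14946 genes tested. No ribosomal protein gene passed (limma and limma-voom) and 0 had an unadjusted p under 0.05, where 5.49% of all genes were raised and 3.79% lowered. With the replicate number as a block, 2268 genes of the 14946 were raised and 2057 lowered, and again 0 ribosomal protein genes passed. Here too same-numbered libraries were taken as pairs from the correlation of their deviations. The estimates ran from -0.30 for RPS9 to 0.28 for RPS24, neither past the test. RPS9 was at 175, 200 and 153 CPM in SCR AAI and 137, 148 and 142 CPM in siB AAI, and it was the 1 gene of the 76 that was lower without overlap, with 0 higher, against 15.8% and 15.1% of all genes.

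The remaining comparison, siB DMSO against SCR DMSO, addressed the knockdown alone. All 76 genes were lower in siB DMSO, with a median of -0.20 against 0.06 over 13606 genes. No ribosomal protein gene passed in either direction (limma and limma-voom), with 0% of all genes raised and 0% lowered, and 2 had an unadjusted p under 0.05, RPL34 and RPL21. The groups did not overlap for 15 genes, all lower in siB DMSO, against 3.64% of all genes, and for 0 in the other direction, against 8.28%. RPL34, with the most negative change, was at 264, 400 and 265 CPM in SCR DMSO against 199, 206 and 206 CPM in siB DMSO, a change of -0.57 ± 0.19 (SE, adjusted p = 1, limma). RPS27 changed by -0.52 ± 0.23 and RPL21 by -0.45 ± 0.16. Without SCR DMSO replicate 2 the median was -0.03 and 36 of the 76 genes were above 0.

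Related genes were described beside the ribosomal proteins, from lists of genes. For the counts that follow, AAI raised 30.4% and lowered 21.8% of all genes tested in siB cells. Of 7 ribosomal protein paralogs that could be tested, AAI raised 2 and lowered 2 in siB cells. RPL3L, the muscle form of RPL3, was at 2.31, 1.35 and 2.01 CPM in siB DMSO against 7.32, 5.63 and 4.77 CPM in siB AAI and rose by 1.26, which left it far below RPL3. RPL7L1 rose by 0.47, and RPL39L and RPS27L fell by 0.71 and 0.39 on the log2 scale. RPS27L, a target of p53, was at 33.2 ± 7.16 CPM in SCR DMSO against 17.6 ± 1.49 CPM in SCR AAI (SD, n = 3), although its change of -0.86 did not pass in SCR cells (adjusted p = 0.0638, limma). Of the 7 paralogs 0 passed in SCR cells, with 5 changes above 0 and 2 below it. RPL7L1 went the other way, from 146 ± 12.6 CPM in SCR DMSO to 249 ± 46.1 CPM in SCR AAI (SD, n = 3).

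Of 20 other mRNAs with a TOP tract, among them translation factors, 3 were raised and 0 lowered in siB cells (limma): NPM1, a nucleolar chaperone, by 0.33, and the initiation factor subunits EIF3E and EIF3H by 0.29 each. The median was 0.14, the same as for the ribosomal proteins. Of 13 regulators of TOP mRNAs 3 rose and 3 fell, with RPS6KB1, the S6 kinase, at 1.17 and RPTOR, the mTOR partner, at -0.73. LARP1, which binds the tract, changed by -0.45. Of 7 factors that act at ribosomal protein promoters 2 rose and 2 fell, with MYC at -1.21 and SP1 at -0.74. Of 11 chaperones and importers of ribosomal proteins 4 rose (IPO7, TNPO1, IPO5 and BCCIP, by 0.45 to 0.73) and 2 fell (PDCD2 at -0.72 and GRWD1 at -0.50).

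Mitochondria have a ribosome of their own, whose proteins are also encoded in the nucleus. Of 78 such genes 8 were raised and 19 lowered in siB cells by AAI, with a median of -0.00, and in siB AAI against SCR AAI 0 were raised and 5 lowered, with a median of -0.22 against 0.04 for the cytosolic set. Of 57 respiratory chain genes that could be tested 6 were raised and 4 lowered in siB cells, with a median of 0.02. In SCR cells the mitochondrial ribosome genes had a median of 0.25, with 1 raised. These counts describe each list beside the ribosomal proteins, and the difference between lists was not tested.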

How the data were processed

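The members and the lists of other genes were chosen with earlier results of these data known. The authors deposited a single table of log10 values for 12 libraries, a log10 scale of CPM (reads of a gene scaled to a common library total). The aligner settings and strand are not given in the sources used here, so reads of overlapping genes cannot be separated. CPM was recovered from the log10 values, and all low values came out as whole reads (tolerance 0.05 reads), which gave the depth of each library. Groups were compared with limma 3.58.1 in R 4.3.3 (lmFit and eBayes with trend) on log2(CPM + 1), over genes that reached 1 CPM in 3 or more of the libraries entering a fit. P-values were adjusted by the Benjamini-Hochberg method over all genes tested, and the words raised and lowered are kept for an adjusted p under 0.05. Each comparison used its own 2 groups, as in the methods of the study, and the interaction used all 4. Summed CPM was not tested. The test was checked on simulated libraries with known changes. Those had the same spread setting for all genes and no library that stood apart, so the check does not cover the spread of SCR DMSO.

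Genes named with values are the 4 most positive and 4 most negative changes of a comparison, a fixed set by role and the extremes of CPM per kilobase. RPL4, RPL9, RPL15, RPL23A, RPL37A, RPS2 and RPS3A, and the lists of genes past the test or without overlap, are named outside that rule, after their values were seen. Some members are counted but not reported singly here. Replicates are separate libraries, and whether they came from separate cultures is not given, so p-values may measure technical spread. Replicates of a group differed by more than sampling noise (chi-square per degree of freedom of at least 4.38). Deviations of same-numbered libraries correlated at 0.35 to 0.49 between SCR DMSO and SCR AAI and at 0.30 to 0.64 between SCR AAI and siB AAI, over 0.1 in each pair, so the numbers were taken as pairs there, but not in the other comparisons, where a correlation fell to 0.03 (siB) and -0.20 (DMSO). Alternatives were another pseudocount, other filters, median-ratio size factors, CPM without AC010970.2, a fit of all 4 groups, a replicate block, limma-voom on recovered reads, no trend, and each library left out. Figures were drawn with matplotlib 3.10.9.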

Additional observations from a re-analysis of the deposited data

How the results depend on the processing

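No value changed direction and remained past the test under any alternative. Of 2880 values of single genes under an alternative, 2680 kept their direction and side of the threshold, 47 lost the threshold, 11 crossed it and 142, none past the test, changed sign. The 12 genes raised by AAI in siB cells numbered 6 with no filter on low values, 2 with median-ratio size factors, 1 in the fit of all 4 groups, 2 with no trend and 2 to 10 when 1 library was left out. The 1 lowered gene became 2 with median-ratio size factors, 0 in the fit of all 4 groups and 1 to 2 when 1 library was left out. In SCR cells 3 genes were lowered in the fit of all 4 groups and 0 otherwise. The log2 ratio of the summed level in siB AAI to siB DMSO was -0.0075 with median-ratio size factors and 0.11 by total reads. With the replicate number as a block, 13 genes were raised and 1 lowered in siB cells, and the block changed no count in the other comparisons. Median-ratio size factors moved the median of all genes in SCR AAI against SCR DMSO from 0.18 to -0.01 and that of the ribosomal protein genes from -0.10 to -0.30. With 3 libraries a group, the median standard error of a ribosomal protein gene was 0.25 in SCR and 0.10 in siB cells. Scaling by total reads makes all levels relative, and the cause of the shifts between settings was not tested.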
